A study of Mus musculus with 104 samples.

Results

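Bone marrow-derived macrophages (BMDMs) that received no treatment were compared between 72 h and 24 h. The members were the 4 libraries of untreated BMDMs in one deposited table, 2 at each time, out of 18 libraries in that table and 104 in the series, and every gene of the table was read (24940 listed, 10908 tested). The cells were C57BL/6J cells cultured in vitro. Those of the 24 h group were labelled as BMDMs on culture day 4 and those of the 72 h group as BMDMs on culture day 6, both marked as untreated, so that 2 more days of culture separated them. The labels name neither the growth factor nor the plating, do not say whether the 2 replicates of a group came from separate cultures or mice, and give no library from before 24 h. P-values therefore measure the spread between libraries of a group, estimated over all 18 libraries of the table, and this spread may be technical.

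A further 3 pairs of C57BL/6J BMDM groups in the table, with 2 libraries per group, were set beside the untreated pair. They received DLL4, a ligand of the Notch receptors, DLL4 with TGF-beta, or DLL4 with TGF-beta and DMHCA, a synthetic sterol that activates the LXR nuclear receptors. A last group received DMHCA alone and was collected at 24 h only. The titles give 24 h or 72 h for these groups as well, while the treatment label of the 72 h groups still reads 24 h, and the titles were followed.

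BMDMs are grown from bone marrow progenitors, usually in CSF1 (M-CSF), the growth factor read by the receptor tyrosine kinase CSF1R. Progenitors and young macrophages divide in response to it, and as the cells mature they leave the cell cycle, enlarge their lysosomes and express receptors for uptake of particles, dying cells and lipoproteins. LXR, which sterols activate, turns on genes for sterol export.

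Recovered reads per library were 13305932 and 18633542 at 24 h and 15746421 and 14987029 at 72 h, within the table's range of 7830287 to 18633542. Levels are given as TPM, which scale reads for transcript length and library, so that levels of different genes can be compared. A change is the difference of the group means of log2(TPM + 1), 72 h minus 24 h, with the standard error from limma, and is named a log2 change throughout. It understates the change of genes at a few TPM. A gene was tested where it reached 4 TPM in 2 of the 18 libraries, so a gene low at 24 h could enter the test through a group where it was high, and counts of list members that rose cover tested members only. A gene was said to rise or fall where limma's Benjamini-Hochberg adjusted p was below 0.05 and the log2 change was at least 1 in size, which is 2-fold. By this rule 702 genes rose (6.44% of those tested) and 800 fell (7.33%), 1502 in all (13.8%). Counts of list members below are to be read beside these shares. The 24 h and 72 h libraries did not overlap for 9209 of the 10908 genes (84.4%). The median log2 change over all tested genes was -0.21, and quantile normalization moved it to -0.02. With that normalization 771 genes rose and 649 fell. Between 15049 and 15424 genes were above 0 TPM in the 24 h libraries, against 15786 and 16024 in the 72 h libraries. The 10 genes with the highest TPM held 15.2% and 15.6% of the summed TPM in the 24 h libraries and 19.7% and 19.6% in those of 72 h. In a chi-square comparison of recovered reads, the 24 h replicates differed by 22.9 per degree of freedom, the highest value of the 9 groups, and the 72 h replicates by 1.58.

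**Figure D1:**
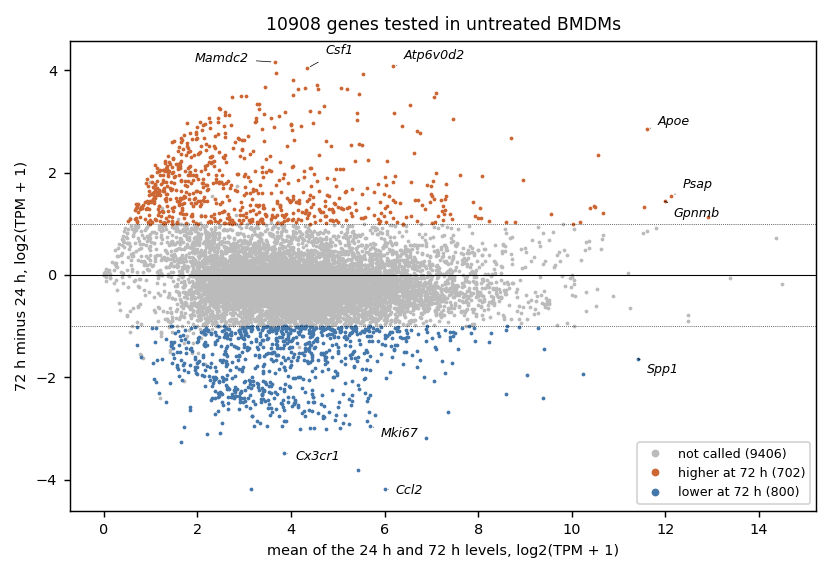
Log2 change from 24 h to 72 h in untreated BMDMs (y axis, difference of mean log2(TPM + 1)) against the mean level (x axis, log2(TPM + 1)) for the 10908 genes tested, each point 1 gene. Orange points are the 702 genes that rose, blue points the 800 that fell, and grey points the genes not called; dotted lines mark a 2-fold change. Apoe, Psap and Gpnmb rose and Spp1 fell at the high end of expression.

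The libraries carried macrophage genes at both times. Lyz2, which encodes the lysozyme of macrophages and neutrophils, was at 23196 and 25999 TPM at 24 h and 22148 and 21415 TPM at 72 h. Csf1r was at 763 and 737 TPM at 24 h and 855 and 855 TPM at 72 h. Adgre1, which encodes the macrophage surface protein F4/80, was at 359 and 359.9 TPM at 24 h and 472 and 479 TPM at 72 h. These 3 genes were high in all 4 libraries and none passed the 2-fold limit, with log2 changes of -0.17 ± 0.06, 0.19 ± 0.04 and 0.40 ± 0.05. Cd68, Itgam and Fcgr1 were not called either, with log2 changes of 0.67 ± 0.06, -0.14 ± 0.07 and -0.64 ± 0.11.

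Markers of other cells were summed in each library. The lymphocyte list summed to 5.28 and 6.55 TPM at 24 h and 4.86 and 5.57 at 72 h, with Cd3e listed at 0 in all 4 libraries, and the erythroid list reached at most 3.58 TPM. The mast cell and basophil list summed to 5.89 and 4.81 TPM at 24 h and 8.57 and 10.4 at 72 h. The dendritic cell list summed to 7.83 and 7.66 TPM at 24 h and 22.5 and 18.8 at 72 h. The megakaryocyte list summed to 349.8 and 411 TPM and 489 and 476, most of it Pf4, and 2 of its 7 tested members rose (Itgb3 and Gp1bb). The list of neutrophil genes summed to 2342 and 2879 TPM at 24 h and 4838 and 4965 at 72 h. The list of stromal cell and fibroblast genes summed to 30.3 and 25.5 TPM at 24 h and 312 and 297 at 72 h. Apart from the lymphocyte sums, none of these sums overlapped between the times, as was so for 84.4% of all tested genes taken singly. The neutrophil and stromal lists are taken up below. In such bulk libraries a change in the number of cells of a type and a change in RNA per cell cannot be told apart.

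Among the genes with the largest differences, the 12 that rose furthest were Mamdc2, Atp6v0d2, Csf1, Cyp1b1, Bgn, Serpinf1, Cdkn1c, Ms4a4a, Tagln, Igfbp7, Serpinh1 and Acta2. Mamdc2, which encodes a secreted protein with MAM domains, was at 1.72 and 2.23 TPM at 24 h and 50.4 and 53.6 TPM at 72 h (4.16 ± 0.11, adjusted p = 7.98e-12). Atp6v0d2 (mm10 chr4:19876838-19922566, minus strand), which encodes a macrophage and osteoclast subunit of the proton pump that acidifies lysosomes, was at 17.9 and 15.5 TPM at 24 h and 288 and 307 TPM at 72 h (4.08 ± 0.09, adjusted p = 1.43e-12). Csf1 (chr3:107741048-107760469, minus strand), the growth factor gene itself, was at 4.64 and 3.42 TPM at 24 h and 79.5 and 82.3 TPM at 72 h (4.04 ± 0.13, adjusted p = 2.32e-11). All 3 were low in both 24 h libraries and high in both 72 h libraries. The rule that named the genes required libraries without overlap. Cdkn1c (chr7:143458339-143461050, minus strand), which encodes the cyclin-dependent kinase inhibitor p57, was at 6.38 and 4.71 TPM at 24 h and 84.9 and 82.5 TPM at 72 h (3.71 ± 0.14). Ms4a4a, a tetraspan membrane protein gene of macrophages, was at 2.42 and 1.73 TPM at 24 h and 40.2 and 35.9 TPM at 72 h (3.67 ± 0.16). The other 7 genes rose by 3.63 to 3.94 on the log2 scale, and several of them (Bgn, Tagln, Igfbp7, Serpinh1, Acta2) are genes of matrix or of contractile and stromal cells. Their levels moved with the summed stromal list, and the part of stromal cells in them was not tested. Acta2 is itself a member of that list and enters its sum, so for Acta2 this was partly fixed in advance.

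**Figure D2:**
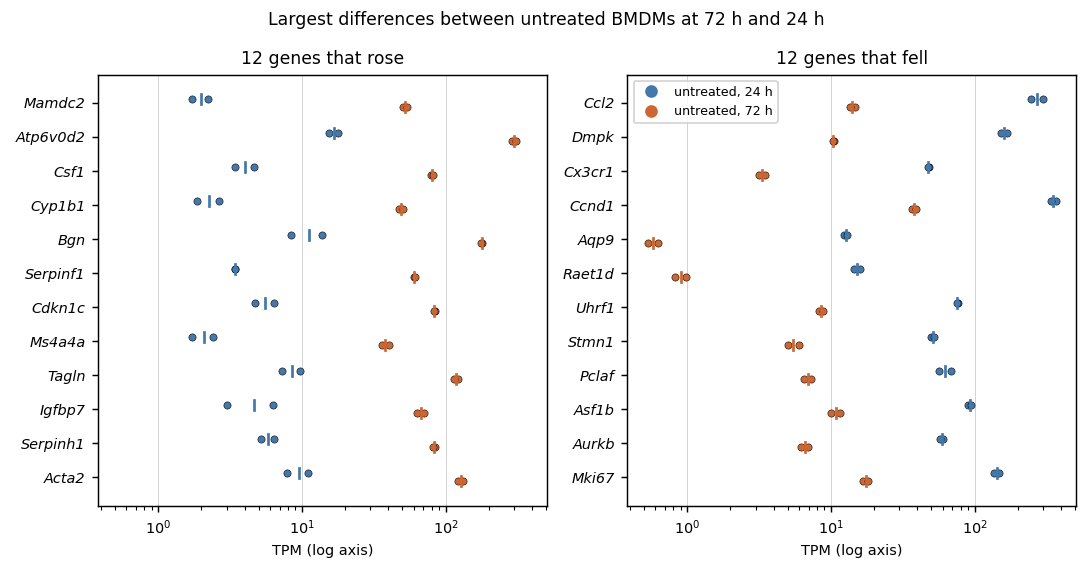
TPM (log axis) of the 12 genes that rose furthest and the 12 that fell furthest in untreated BMDMs by the naming rule, each point 1 library and each short bar the mean of 2. Blue points are 24 h and orange points 72 h. For every gene shown the libraries of the 2 times do not overlap, which the naming rule required. Ccl2, for example, was at 246 and 300.5 TPM at 24 h and 14.6 and 13.5 TPM at 72 h.

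The 12 that fell furthest were Ccl2, Dmpk, Cx3cr1, Ccnd1, Aqp9, Raet1d, Uhrf1, Stmn1, Pclaf, Asf1b, Aurkb and Mki67. Ccl2 (chr11:82035577-82037452, plus strand), the chemokine that draws monocytes through the receptor CCR2, was at 246 and 300.5 TPM at 24 h and 14.6 and 13.5 TPM at 72 h (-4.18 ± 0.25, adjusted p = 8.48e-09). Dmpk (chr7:19083849-19093820, plus strand), which encodes a serine/threonine kinase, was at 169 and 152 TPM at 24 h and 10.5 and 10.3 TPM at 72 h (-3.82 ± 0.08, adjusted p = 1.42e-12). Cx3cr1 (chr9:120048683-120068296, minus strand), the fractalkine receptor of monocytes and many resident macrophages, was at 47.7 and 47.0 TPM at 24 h and 3.48 and 3.19 TPM at 72 h (-3.48 ± 0.11, adjusted p = 2.58e-11). Each of the 3 was high in both 24 h libraries and more than 10 times lower in both 72 h libraries. Ccnd1 (chr7:144929931-144939925, minus strand), the cyclin D1 gene that growth factors switch on, was at 368 and 338 TPM at 24 h and 36.7 and 39.1 TPM at 72 h (-3.18 ± 0.11). Aqp9, which encodes a water and glycerol channel, was at 12.4 and 12.9 TPM at 24 h and 0.533 and 0.625 TPM at 72 h (-3.11 ± 0.12). Raet1d fell by 3.09 on the log2 scale, but it has near-identical Raet1 copies, so its reads cannot be assigned surely. The other 6 genes, Uhrf1, Stmn1, Pclaf, Asf1b, Aurkb and Mki67, belong to DNA replication, chromatin assembly or mitosis.

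Genes of cell division fell nearly as a block. Of 38 tested genes of DNA replication, 36 fell and 0 rose, with a median log2 change of -2.21 against -0.21 over all tested genes. Of 35 tested genes of mitosis, 35 fell, with a median of -2.55. Uhrf1, which keeps DNA methylation in place at replication forks, was at 76.1 and 75.7 TPM at 24 h and 8.20 and 8.76 TPM at 72 h (-3.02 ± 0.09). Mcm5 (chr8:75109509-75128439, plus strand), a subunit of the MCM helicase that opens DNA at replication origins, was at 91.8 and 95.3 TPM at 24 h and 10.9 and 12.5 TPM at 72 h (-2.90 ± 0.16). Rrm1, the large subunit of ribonucleotide reductase, was at 114 and 115 TPM at 24 h and 20.1 and 21.7 TPM at 72 h (-2.40 ± 0.05). All 3 dropped in both 72 h libraries. Pcna, the sliding clamp of replication and repair, and Gins4 were the 2 members not called. Pcna was at 325 and 385 TPM at 24 h and 204 and 209 TPM at 72 h (-0.77 ± 0.07). Clspn, Lig1 and Tk1 fell by 2.94, 2.70 and 2.67.

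Among the mitotic genes, Mki67 (chr7:135689788-135716379, minus strand), which encodes the Ki-67 protein coating mitotic chromosomes, was at 148 and 136 TPM at 24 h and 16.6 and 18.2 TPM at 72 h (-2.96 ± 0.11, adjusted p = 1.01e-10). Top2a (chr11:98992947-99024189, minus strand), the topoisomerase that untangles sister chromatids, was at 142 and 141 TPM at 24 h and 19.4 and 21.2 TPM at 72 h (-2.74 ± 0.10). Ccnb2, a cyclin of mitotic entry, was at 65.7 and 69.0 TPM at 24 h and 8.84 and 8.71 TPM at 72 h (-2.80 ± 0.11). The levels at 72 h were low but not at 0. Summed over the list, mitotic genes were at 1837 and 1807 TPM at 24 h and 279.9 and 285 at 72 h, and the DNA replication genes at 2021 and 2054 and 550.5 and 561. Aurkb, Bub1, Nusap1 and Hmmr, genes of the spindle and its checkpoint, fell by 2.76 to 2.98 on the log2 scale.

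Promoters of cell cycle genes were searched for letters known from such genes, and 7 stretches of genes that fell are shown as examples, chosen after the matches were seen. E2F factors, which drive replication genes, bind sites such as TTTCCCGC, TTTGGCGC and TTTCGCGC. The cell cycle homology region (CHR), bound by the DREAM and MuvB complexes at mitotic genes, was searched as TTTGAA and TTCGAA, and the CCAAT box, bound by NF-Y, as CCAAT. All were searched on both strands in windows of 300 bases, 250 before and 50 after the start site. RefSeq promoters within 100 bases of the table's start site were found for 8032 of the 10908 tested genes. Each line below is 90 bases, 5′ to 3′ on the gene's strand, with the matched letters in capitals (E2F letters for Mcm5 and Mcm6, CHR and CCAAT letters, where present, for the others), from RefSeq on GRCm38.p6. Neighbouring E2F matches on opposite strands overlap in Mcm5 and Mcm6.
Mcm5: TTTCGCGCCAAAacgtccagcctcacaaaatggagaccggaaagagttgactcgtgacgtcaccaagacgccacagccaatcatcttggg
Mcm6: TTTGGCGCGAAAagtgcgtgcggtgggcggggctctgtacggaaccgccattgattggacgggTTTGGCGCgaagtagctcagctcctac
Mki67: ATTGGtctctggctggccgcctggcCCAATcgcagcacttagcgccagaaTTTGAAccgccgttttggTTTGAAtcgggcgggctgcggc
Cdk1: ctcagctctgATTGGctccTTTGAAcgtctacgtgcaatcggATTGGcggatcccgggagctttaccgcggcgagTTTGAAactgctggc
Top2a: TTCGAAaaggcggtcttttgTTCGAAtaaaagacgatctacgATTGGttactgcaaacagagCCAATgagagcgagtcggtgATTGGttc
Cdc20: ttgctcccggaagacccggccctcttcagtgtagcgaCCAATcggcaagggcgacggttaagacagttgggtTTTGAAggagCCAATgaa
Ccnb2: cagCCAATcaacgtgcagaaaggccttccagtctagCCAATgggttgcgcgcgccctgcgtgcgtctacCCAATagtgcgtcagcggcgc
The Mcm5 stretch lies at chr8:75109356-75109445 (plus strand), that of Mcm6 at chr1:128359726-128359815 (minus strand), that of Mki67 at chr7:135716456-135716545 (minus strand), that of Cdk1 at chr10:69352913-69353002 (minus strand), that of Top2a at chr11:99024240-99024329 (minus strand), that of Cdc20 at chr4:118437344-118437433 (minus strand) and that of Ccnb2 at chr9:70421555-70421644 (minus strand). Ccnb2 is shown because its stretch held CCAAT letters and no CHR letters, as did those taken from Ccnb1, Plk1 and Bub1 in the same way. Stretches were taken only from the 250 bases before the start site, so CHR letters after that site could not appear in them. A stretch without CHR letters therefore does not show that the promoter lacks them. Cdk1, Cdc20 and Mcm6 fell by 2.52, 2.25 and 2.34 on the log2 scale.

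An E2F match lay in 12 of 27 promoters of DNA replication genes (44.4%), in 1 of 27 of mitosis genes (3.7%) and in 315 of all 8032 (3.9%). CHR and CCAAT letters together lay in 19 of 27 promoters of mitosis genes (70.4%), in 5 of 27 of replication genes (18.5%) and in 460 of all 8032 (5.7%). Among all genes that fell, 72 of 584 promoters held an E2F match (12.3%) and 160 held CHR letters (27.4%), against 6 of 478 (1.3%) and 46 of 478 (9.6%) among genes that rose. Leaving out both cell cycle lists, 729 of the 800 genes that fell remained, and among their 531 promoters the shares were 11.1% and 25.2%. The lists hold only 38 and 35 tested genes, so other cell cycle genes may be among those that remained. A match is a description of letters and not a measured binding site.

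Regulators of entry into division fell as well. Of 11 tested growth-phase regulators, 8 fell and 0 rose. Besides Ccnd1, the cyclin E genes Ccne2 and Ccne1 fell by 2.62 and 2.32, and E2f2, an activating E2F factor, fell by 2.51. Myc, the growth regulator, was at 70.0 and 64.6 TPM at 24 h and 21.9 and 20.6 TPM at 72 h (-1.62 ± 0.08). Of 14 tested cell cycle brakes, 2 rose (Cdkn1c and Btg2) and 3 fell (Cdkn2c, Rbl1 and Cdkn2d). Cdkn2c, which encodes the CDK4 and CDK6 inhibitor p18, was at 73.3 and 61.9 TPM at 24 h and 8.93 and 9.09 TPM at 72 h (-2.77 ± 0.11), opposite to Cdkn1c. Cdkn1a, the p21 gene, was not called at 297 and 285 TPM at 24 h and 155 and 166 TPM at 72 h (-0.86 ± 0.05). Btg2 was no longer called without the second 24 h library.

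**Figure D3:**
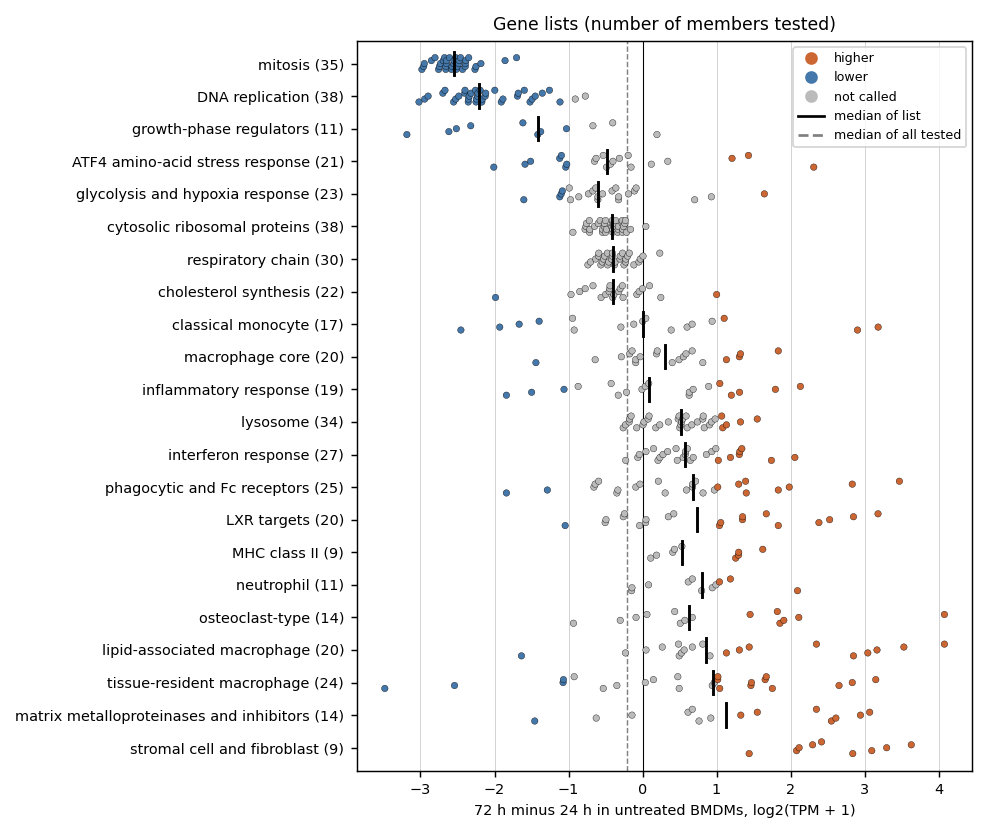
Log2 change from 24 h to 72 h in untreated BMDMs (x axis, difference of mean log2(TPM + 1)) for the tested members of 22 gene lists, each point 1 gene, with the number tested in brackets. Orange points rose, blue points fell and grey points were not called; black bars are list medians (none for the stromal list) and the dashed line is the median over all tested genes, -0.21. Mitosis and DNA replication lie at the low end (medians -2.55 and -2.21) and the stromal list, whose members under 4 TPM at 24 h were tested only through other libraries, at the high end.

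Of 12 tested genes of CSF1 and CSF2 signalling, 4 rose and 3 fell. Those that fell, Etv5, Dusp6 and Spred1, are feedback or target genes of the ERK pathway downstream of growth factor receptors, and Spred1 was not called after quantile normalization, by limma-voom or without the first 24 h library. Etv5 was at 50.3 and 41.6 TPM at 24 h and 13.8 and 15.0 TPM at 72 h (-1.60 ± 0.10), and Dusp6 was at 80.8 and 75.1 TPM at 24 h and 30.3 and 32.3 TPM at 72 h (-1.29 ± 0.09). Both were lower in each 72 h library. Those that rose were Csf1, Csf3r and the receptor subunit genes Csf2rb and Csf2rb2, whose reads cannot be separated surely because the 2 genes are near-identical. Csf3r, the receptor of the granulocyte factor G-CSF, was at 9.22 and 9.40 TPM at 24 h and 42.7 and 43.3 TPM at 72 h (2.09 ± 0.11). Neutrophils carry this receptor, and the neutrophil list went from 2342 and 2879 TPM to 4838 and 4965 TPM; their part in it was not tested.

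Of 38 tested cytosolic ribosomal protein genes, none rose or fell by limma, although 32 had an unadjusted p below 0.05 and a lower level, and limma-voom on recovered reads called 0. Without the first 24 h library 1 member was called lower. The median log2 change was -0.41. Of 30 tested genes of the respiratory chain, none rose or fell by limma, with 23 lower at an unadjusted p below 0.05, 0 called by limma-voom and a median of -0.39. Both medians are to be read against -0.21 for all genes. Of 20 tested genes of ribosome biogenesis, 2 fell (Nop58 and Dkc1), beside 7.33% of all tested genes, and 0 did after quantile normalization. Of 23 tested genes of glycolysis and the hypoxia response, 4 fell and 1 rose, beside 7.33% and 6.44% of all tested genes. Pgk1, a glycolytic kinase, was at 37.7 and 36.1 TPM at 24 h and 12.3 and 10.7 TPM at 72 h (-1.60 ± 0.15), and Vegfa, the angiogenic growth factor, was at 12.4 and 13.1 TPM at 24 h and 44.0 and 40.4 TPM at 72 h (1.65 ± 0.10). After quantile normalization 2 of the list fell and 2 rose.

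Of 21 tested genes of the ATF4 response, which makes amino acids and one-carbon units when they run short, 7 fell and 3 rose, and 3 fell and 3 rose after quantile normalization. Mthfd2, a mitochondrial one-carbon enzyme, was at 96.1 and 95.1 TPM at 24 h and 22.5 and 23.5 TPM at 72 h (-2.01 ± 0.05). Asns, asparagine synthetase, was at 87.9 and 89.8 TPM at 24 h and 30.2 and 27.7 TPM at 72 h (-1.59 ± 0.06), and Shmt2, the mitochondrial serine hydroxymethyltransferase, was at 86.4 and 78.1 TPM at 24 h and 28.8 and 27.5 TPM at 72 h (-1.51 ± 0.08). These 3 biosynthetic enzymes were lower in both 72 h libraries. Ddit4, an inhibitor of mTORC1 signalling, was at 1.42 and 1.82 TPM at 24 h and 13.5 and 10.7 TPM at 72 h (2.31 ± 0.18) and Atf3 at 143 and 145 TPM at 24 h and 383 and 398 TPM at 72 h (1.43 ± 0.06), both higher in each 72 h library. Atf4 itself was not called, at 202 and 208 TPM at 24 h and 133 and 128 TPM at 72 h (-0.65 ± 0.06).

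Some chemokine and monocyte genes fell. Of 14 tested chemokines 2 fell (Ccl2 and Ccl7) and 2 rose (Ccl5 and Cxcl10). Without the first 24 h library 4 fell, and without the second 24 h library or the first 72 h library 1 rose. Ccl7, another ligand of CCR2, was at 51.4 and 68.0 TPM at 24 h and 15.0 and 13.3 TPM at 72 h (-1.99 ± 0.30). Ccl9, a chemokine of myeloid cells, was just under the 2-fold limit at 292 and 309.5 TPM at 24 h and 152.9 and 149 TPM at 72 h (-0.99 ± 0.07). Of 15 tested chemokine and trafficking receptors 3 rose and 3 fell. Ccr2, the receptor for CCL2, was at 119 and 112 TPM at 24 h and 21.0 and 19.5 TPM at 72 h (-2.45 ± 0.11). Cxcr4, the receptor of CXCL12 that retains cells in bone marrow, was at 22.4 and 21.7 TPM at 24 h and 112 and 105 TPM at 72 h (2.25 ± 0.06). Cmklr1, the chemerin receptor, was at 4.83 and 4.61 TPM at 24 h and 23.9 and 21.4 TPM at 72 h (2.05 ± 0.11) and Ccrl2, a chemerin-binding decoy receptor, at 2.07 and 1.69 TPM at 24 h and 15.2 and 14.8 TPM at 72 h (2.48 ± 0.10). So Ccr2 and Cx3cr1 were lower at 72 h, while Cxcr4, Cmklr1 and Ccrl2 were higher. C5ar1, the C5a receptor, fell by 1.02 but was not called after quantile normalization, by limma-voom or without the first 24 h library.

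Of 17 tested genes of classical monocytes, 4 fell and 3 rose. S100a4, which encodes a calcium-binding protein, was at 1951 and 2781 TPM at 24 h and 583 and 639.9 TPM at 72 h (-1.93 ± 0.14). Klf4, a transcription factor of monocyte differentiation, was at 28.6 and 21.5 TPM at 24 h and 6.52 and 7.78 TPM at 72 h (-1.67 ± 0.19), and Vcan, a matrix proteoglycan of monocytes, at 9.02 and 7.48 TPM at 24 h and 2.48 and 2.52 TPM at 72 h (-1.40 ± 0.17). Each was lower in both 72 h libraries. Fn1, fibronectin, was at 8.08 and 6.10 TPM at 24 h and 72.2 and 71.8 TPM at 72 h (3.18 ± 0.15), and Thbs1, thrombospondin, at 32.2 and 26.1 TPM at 24 h and 231 and 216 TPM at 72 h (2.90 ± 0.13); fibroblasts express both as well, and the stromal sums above moved with them. Of 18 tested genes of myeloid precursors and granules 5 rose and 1 fell, and the summed level of the list went from 2313 and 2862 TPM to 4826 and 4972 TPM. Those that rose were Chil1, a secreted chitinase-like protein gene, by 1.64, Ngp by 1.19, Flt3, a progenitor receptor gene at most 1.99 TPM, by 1.17, S100a9 by 1.04 and Sox4, a transcription factor gene, by 1.01. After quantile normalization 4 rose, and by limma-voom 8 did. The gene that fell was Cd34, a progenitor surface marker, at 13.7 and 12.4 TPM at 24 h and 1.36 and 1.47 TPM at 72 h (-2.54 ± 0.12). The granule protease genes Mpo and Elane were not called, at 47.9 and 45.6 TPM at 24 h and 58.4 and 65.1 TPM at 72 h for Mpo and 43.0 and 40.5 TPM at 24 h and 39.0 and 43.0 TPM at 72 h for Elane.

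Several genes of lipid export rose. Of 20 tested LXR targets, 10 rose and 1 fell, with a median log2 change of 0.73, and their summed level went from 4162 and 4109 TPM to 11998 and 11661 TPM. At 72 h the larger part of that sum was Apoe, the apolipoprotein of lipid export, which was at 1106 and 1209 TPM at 24 h and 8597 and 8102 TPM at 72 h (2.85 ± 0.06, adjusted p = 8.63e-13). Abca1 (chr4:53030789-53159895, minus strand), which pumps cholesterol to apolipoproteins, was at 4.04 and 3.67 TPM at 24 h and 43.7 and 42.4 TPM at 72 h (3.18 ± 0.11, adjusted p = 6.25e-11). Abcg1, a partner transporter to HDL, was at 11.1 and 11.1 TPM at 24 h and 67.7 and 70.3 TPM at 72 h (2.53 ± 0.05). The 3 export genes were each higher in both 72 h libraries. Pltp, the phospholipid transfer protein gene, was at 42.2 and 42.3 TPM at 24 h and 223 and 227 TPM at 72 h (2.38 ± 0.07). Mylip, which degrades the LDL receptor, rose by 1.35, and Nr1h3, which encodes LXR-alpha, was at 3.47 and 4.73 TPM at 24 h and 15.2 and 15.1 TPM at 72 h (1.67 ± 0.10). Apoc1 was listed at 0 in both 24 h libraries and at 1.05 and 1.11 TPM at 72 h, and was not called after quantile normalization. The member that fell, Fasn, is fatty acid synthase and is given with its own list below.

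Few sterol synthesis genes passed the 2-fold limit, though most leaned lower. Of 22 tested genes of cholesterol synthesis, 1 fell and 1 rose, beside 7.33% and 6.44% of all tested genes. The median was -0.39 against -0.21 over all tested genes, and the lowest change was -1.99. With no minimum fold, 13 of the 22 were lower and 2 higher at an adjusted p below 0.05. Of all 10908 tested genes 4907 were lower and 2099 higher in this way. The gene that rose, Fdft1, which encodes squalene synthase, was at 56.6 and 59.4 TPM at 24 h and 112 and 122 TPM at 72 h (1.00 ± 0.06), just past the limit, and was not called without the first 24 h library or without the second 72 h library. Of 13 tested genes of fatty acid synthesis, Acss2 and Scd1 rose and Fasn fell. Acss2, which makes acetyl-CoA from acetate, was at 4.76 and 4.00 TPM at 24 h and 15.8 and 15.9 TPM at 72 h (1.65 ± 0.09). Fasn, fatty acid synthase, fell by 1.05 and was not called after quantile normalization or without the first 24 h library.

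Of 20 tested genes of lipid-associated macrophages, a state of macrophages loaded with lipid, 9 rose and 1 fell. Fabp5 and Fabp4, fatty acid carriers, were at 52.1 and 68.6 TPM at 24 h and 507 and 494 TPM at 72 h (3.04 ± 0.12) and 9.69 and 14.3 TPM at 24 h and 157 and 138 TPM at 72 h (3.53 ± 0.22). Gpnmb, a lysosomal and surface glycoprotein, was at 2484 and 2416 TPM at 24 h and 6559.8 and 6755 TPM at 72 h (1.44 ± 0.05), and Mmp12, the macrophage elastase, at 649.9 and 678 TPM at 24 h and 3336 and 3439 TPM at 72 h (2.35 ± 0.06). Gpnmb and Mmp12 were already abundant at 24 h, while Fabp5 and Fabp4 were at lower levels. Spp1, osteopontin, moved the other way, at 4584 and 5010.3 TPM at 24 h and 1486 and 1599 TPM at 72 h (-1.64 ± 0.09, adjusted p = 2.50e-09). Gpnmb was not called after quantile normalization, where its change was 0.98.

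Of 34 tested lysosomal genes 5 rose and 0 fell, with a median of 0.52, and 29 were not called. Psap, the precursor of the saposins that help break down sphingolipids, was at 2606 and 2612 TPM at 24 h and 7639 and 7651 TPM at 72 h (1.55 ± 0.05). Ctss, the protease cathepsin S, was at 1758 and 1988 TPM at 24 h and 4738 and 4627 TPM at 72 h (1.32 ± 0.06), and Ctsd, cathepsin D, at 5025 and 5318 TPM at 24 h and 11239 and 11455 TPM at 72 h (1.13 ± 0.06). Ctsh and Ctsf, further cathepsins, rose by 1.07 and 1.08. These highly expressed genes took the list's summed level from 18852 and 19464 TPM to 37048 and 37409 TPM. Quantile normalization ended the calls of Psap and Ctsd but called 6 members in all, limma-voom called 7, and Ctsh was not called without the first 24 h library. Letters CACGTG, the E-box of the CLEAR element bound by TFEB and its relatives, lay in 12 of 27 promoters of lysosomal genes (44.4%) and in 877 of all 8032 (10.9%), searched in the same windows on both strands, where the letters read alike. Among all genes that rose the letters lay in 31 of 478 promoters (6.5%), and among those that fell in 53 of 584 (9.1%).

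Of 14 tested osteoclast-type genes 6 rose and 0 fell. Besides Atp6v0d2, Acp5, the tartrate-resistant acid phosphatase, was at 7.55 and 6.13 TPM at 24 h and 30.8 and 34.8 TPM at 72 h (2.11 ± 0.14), and Dcstamp, which is needed for cell fusion, at 4.69 and 4.29 TPM at 24 h and 19.9 and 19.3 TPM at 72 h (1.91 ± 0.14). Ctsk, cathepsin K, was at 9.44 and 7.20 TPM at 24 h and 32 and 33.0 TPM at 72 h (1.86 ± 0.24). All 3 were above their 24 h levels in both 72 h libraries. Calcr, the calcitonin receptor of mature osteoclasts, was listed at 0 in all 4 libraries. Tnfrsf11a, which encodes the receptor RANK, was not called at 64.7 and 56.0 TPM at 24 h and 31.6 and 30.5 TPM at 72 h (-0.93 ± 0.07).

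Receptors for uptake changed in both directions. Of 25 tested phagocytic and Fc receptor genes, 8 rose and 2 fell. Clec7a (chr6:129461591-129472779, minus strand), which encodes the beta-glucan receptor Dectin-1, was at 36.7 and 41.5 TPM at 24 h and 445 and 441 TPM at 72 h (3.47 ± 0.12, adjusted p = 4.26e-11). Axl and Mertk, receptors for dying cells, were at 5.05 and 5.08 TPM at 24 h and 40.9 and 43.6 TPM at 72 h (2.83 ± 0.08) and 11.2 and 11.8 TPM at 24 h and 42.6 and 44.6 TPM at 72 h (1.83 ± 0.09). Clec4n, Dectin-2, was at 67.2 and 68.4 TPM at 24 h and 284 and 259 TPM at 72 h (1.98 ± 0.09). Cd36, a scavenger receptor for oxidised lipoprotein, was at 849.9 and 858 TPM at 24 h and 2064 and 2145 TPM at 72 h (1.30 ± 0.06), while Msr1, another scavenger receptor, was at 373 and 391 TPM at 24 h and 156 and 156 TPM at 72 h (-1.29 ± 0.05). Clec4e, which encodes Mincle, was at 49.9 and 52.7 TPM at 24 h and 14.2 and 13.0 TPM at 72 h (-1.84 ± 0.14). So Clec7a, Axl, Mertk, Clec4n and Cd36 rose, and Msr1 and Clec4e fell.

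Of 12 tested complement genes 5 rose and 1 fell. Itgax, which encodes CD11c, the alpha chain of a complement receptor, was at 23.3 and 23.7 TPM at 24 h and 209 and 230.4 TPM at 72 h (3.17 ± 0.11, adjusted p = 4.13e-11). C1qa was at 56.0 and 62.9 TPM at 24 h and 177 and 156 TPM at 72 h (1.47 ± 0.13), C1qb at 418 and 480.8 TPM at 24 h and 880.1 and 845 TPM at 72 h (0.94 ± 0.07) and C1qc at 291 and 327 TPM at 24 h and 645 and 628 TPM at 72 h (1.04 ± 0.07). The 3 chains of C1q were thus higher in both 72 h libraries, with C1qb just under the 2-fold limit and C1qc just over it; C1qc was not called without the first 24 h library. C3, the central complement component, was at 19.5 and 17.5 TPM at 24 h and 44.5 and 44.2 TPM at 72 h (1.22 ± 0.11).

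Of 24 tested genes of tissue-resident macrophages 11 rose and 4 fell. Cd5l, a secreted protein of Kupffer cells and other resident macrophages, was at 61.5 and 67.0 TPM at 24 h and 211 and 227 TPM at 72 h (1.75 ± 0.06). Slc40a1, which encodes the iron exporter ferroportin, was at 89.7 and 86.1 TPM at 24 h and 249 and 239.9 TPM at 72 h (1.46 ± 0.05). Spic, a transcription factor of iron-recycling macrophages, was at 0.578 and 0.566 TPM at 24 h and 8.53 and 9.29 TPM at 72 h (2.66 ± 0.19). These 3 were higher in both 72 h libraries. Vcam1, an adhesion protein, was at 2.61 and 2.54 TPM at 24 h and 29.6 and 32 TPM at 72 h (3.15 ± 0.38). The summed stromal list was higher in the same libraries, and the part of stromal cells in Vcam1 was not tested. Id1, an inhibitor of basic helix-loop-helix factors, was at 90.8 and 95.4 TPM at 24 h and 15.3 and 15.0 TPM at 72 h (-2.54 ± 0.10). It was lower in both 72 h libraries, as was Cx3cr1. The other 2 members that fell, Folr2, a folate receptor, and Cd163, the hemoglobin scavenger receptor, lost the call without the second 24 h library and without the second 72 h library, in that order, and Folr2 also after quantile normalization. The Kupffer cell genes Clec4f and Timd4 were at 0.043 and 0 TPM at 24 h and 0 and 0 TPM at 72 h for Clec4f and 0.096 and 0.033 TPM at 24 h and 0.381 and 0.282 TPM at 72 h for Timd4, and neither was tested. Of 20 tested genes of iron, heme and the NRF2 response 3 rose and 1 fell, beside 6.44% and 7.33% of all tested genes. Trf, transferrin, was at 29.4 and 27.3 TPM at 24 h and 288 and 299 TPM at 72 h (3.33 ± 0.06, adjusted p = 3.67e-13).

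Genes of stromal cells had higher levels at 72 h. Of 13 listed stromal cell and fibroblast genes 9 passed the expression filter, and most of them were under 4 TPM in both untreated 24 h libraries and passed only through libraries where they were higher, so their count of calls is not read as a result. Acta2, smooth muscle actin, was at 11 and 7.92 TPM at 24 h and 133 and 122 TPM at 72 h (3.63 ± 0.19). Col1a2 and Col1a1, the chains of type I collagen, were at 3.44 and 3.73 TPM at 24 h and 39.7 and 36.8 TPM at 72 h (3.10 ± 0.15) and 2.76 and 3.16 TPM at 24 h and 20.6 and 19.7 TPM at 72 h (2.42 ± 0.20). Sparc, a collagen-binding matrix protein, was at 8.21 and 6.55 TPM at 24 h and 81.3 and 81.0 TPM at 72 h (3.30 ± 0.14). The 4 genes were at most 11 TPM in either 24 h library and at least 19.7 TPM in either 72 h library. Pdgfrb and Cxcl12, a receptor and a chemokine of bone marrow stroma, were at 0.829 and 0.476 TPM at 24 h and 6.97 and 7.20 TPM at 72 h and 0.623 and 0.377 TPM at 24 h and 5.27 and 5.38 TPM at 72 h. Of the 4 members not tested, Lum was at 0 in all 4 libraries, Thy1 was at 0 and 0 TPM at 24 h and 0.334 and 0 TPM at 72 h, Dcn at 0.443 and 0.531 TPM at 24 h and 1.10 and 1.30 TPM at 72 h and Pdgfra at 0.095 and 0.043 TPM at 24 h and 1.12 and 1.43 TPM at 72 h. The summed level of the list in the 72 h libraries of the treated groups ran from 376.8 to 1172.4 TPM, and with DMHCA alone at 24 h it was 5.93 and 7.64 TPM.

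The matrix and growth factor genes below rose in the same libraries as the stromal list (30.3 and 25.5 TPM at 24 h and 312 and 297 at 72 h), and the part of stromal cells in them was not tested. Of 14 tested matrix metalloproteinases and inhibitors 7 rose and 1 fell. Mmp14, a membrane-bound collagenase, was at 2.44 and 2.16 TPM at 24 h and 27.3 and 26.1 TPM at 72 h (3.07 ± 0.07). The inhibitor genes Timp1, Timp2 and Timp3 were at 4.96 and 4.62 TPM at 24 h and 42.9 and 44.2 TPM at 72 h (2.94 ± 0.19), 17.5 and 16.8 TPM at 24 h and 103 and 108 TPM at 72 h (2.55 ± 0.08) and 3.33 and 3.29 TPM at 24 h and 25.0 and 25.7 TPM at 72 h (2.61 ± 0.13). Adam8, a membrane protease of myeloid cells, fell from 1144 and 1094 TPM to 405 and 409.6 TPM (-1.46 ± 0.05). Of 21 tested TGF-beta and BMP targets and ligands 7 rose and 2 fell. The ligand genes Tgfb2, Tgfb3 and Inhba rose by 1.45, 1.62 and 1.88. Tgfbi, which TGF-beta induces in many cells, was at 307 and 298 TPM at 24 h and 79.4 and 80.4 TPM at 72 h (-1.91 ± 0.04), opposite to these ligand genes. Csf1, described above among the largest rises, is also made by stromal cells.

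**Figure D4:**
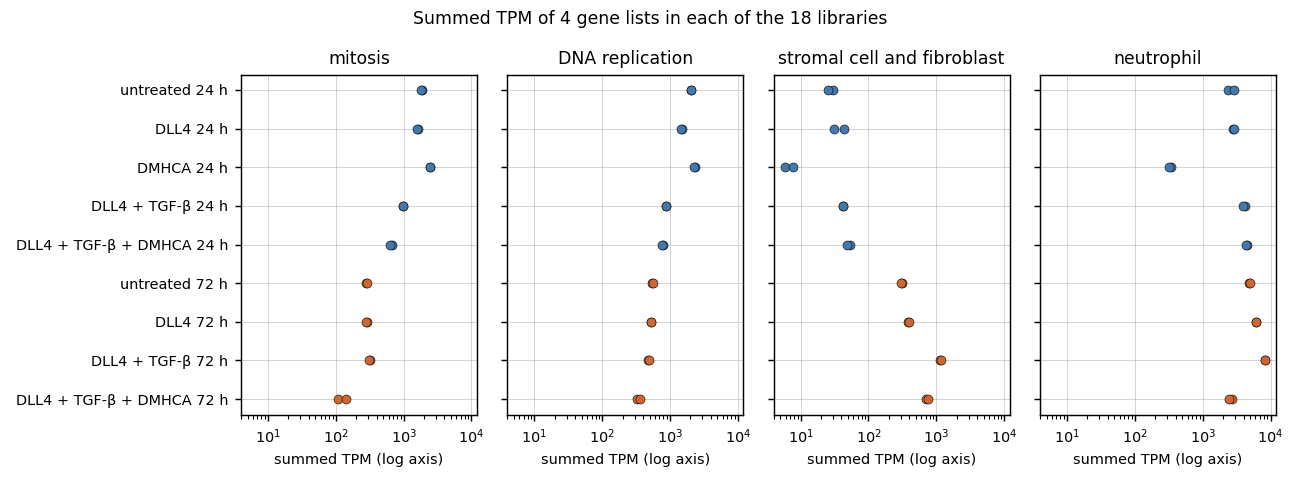
Summed TPM (log axis) of the mitosis, DNA replication, stromal and neutrophil lists in each of the 18 libraries of the table, each point 1 library, in rows by group; blue points are 24 h and orange points 72 h. In untreated cells the mitosis sum was 1837 and 1807 TPM at 24 h and 279.9 and 285 at 72 h, and the stromal sum 30.3 and 25.5 and 312 and 297.

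Some neutrophil genes rose. Of 11 tested members 3 rose and 0 fell, Csf3r, Ngp and S100a9. By limma-voom 6 rose, without the first 24 h library 2, and without the second 24 h library or the first 72 h library 4. Csf3r, described above, rose furthest (2.09 ± 0.11). Ngp, a secondary granule gene, was at 498 and 495 TPM at 24 h and 1124 and 1141 TPM at 72 h (1.19 ± 0.08). S100a9, a chain of calprotectin, was at 668 and 949 TPM at 24 h and 1626 and 1649.6 TPM at 72 h (1.04 ± 0.13), and was not called after quantile normalization or without the first 24 h library. Its partner S100a8 was at 519 and 768 TPM at 24 h and 1219.6 and 1296 TPM at 72 h (0.99 ± 0.12) and not called. Ngp and S100a9 are listed among the granule genes above as well. The sum of the list was 2342 and 2879 TPM at 24 h and 4838 and 4965 at 72 h, and Ly6g, the defining surface marker, was at 2.04 and 1.86 TPM at 24 h and 0.721 and 2.57 TPM at 72 h.

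Genes of antigen presentation and interferon rose in part. Of 9 tested MHC class II genes 4 rose and 0 fell. H2-Aa was at 29.6 and 30.8 TPM at 24 h and 96.7 and 94.0 TPM at 72 h (1.62 ± 0.34), H2-Ab1 at 22.0 and 23 TPM at 24 h and 60.5 and 53.4 TPM at 72 h (1.30 ± 0.28) and Cd74, the invariant chain, at 101 and 89.4 TPM at 24 h and 232 and 226 TPM at 72 h (1.26 ± 0.28). Dendritic cells carry these genes too, and the dendritic cell list moved with them, from 7.83 and 7.66 TPM to 22.5 and 18.8 TPM, with 3 of 7 tested members called, or 1 after quantile normalization; their part was not tested. Of 14 tested MHC class I genes 2 rose, beside 6.44% of all tested genes. Those that rose were H2-D1 and H2-T23, which belong to a family of near-identical genes. Of 27 tested interferon response genes 7 rose and 0 fell. Rsad2, the antiviral enzyme viperin, was at 0.742 and 1.04 TPM at 24 h and 7.80 and 6.00 TPM at 72 h (2.06 ± 0.25), and Ifi204, a DNA sensor family gene, at 18 and 22.7 TPM at 24 h and 52.7 and 50.8 TPM at 72 h (1.31 ± 0.11). Apart from Ifi204, the interferon genes that rose were below 10 TPM in each of the 4 libraries.

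Of 19 tested inflammatory genes 5 rose and 3 fell. Without the first 72 h library, or with quantile normalization, 3 rose. Il1rn, the antagonist of the interleukin-1 receptor, was at 8.23 and 5.73 TPM at 24 h and 32.5 and 34.6 TPM at 72 h (2.13 ± 0.14). Nlrp3, the inflammasome sensor, was at 44.8 and 43.8 TPM at 24 h and 14.6 and 15.4 TPM at 72 h (-1.50 ± 0.07). Tnfaip3, which restrains NF-kappaB, was at 8.88 and 8.63 TPM at 24 h and 21.1 and 21.8 TPM at 72 h (1.20 ± 0.09). Il1a and Il1b were called higher but reached at most 2.00 TPM, and neither was called after quantile normalization. Of 18 tested immediate-early genes 5 rose and 1 fell. Egr2, an early growth response factor of macrophages, was at 10.3 and 9.38 TPM at 24 h and 64.5 and 65.5 TPM at 72 h (2.61 ± 0.09), and Klf2, a factor that restrains macrophage activation, was at 37.8 and 33.1 TPM at 24 h and 7.11 and 9.24 TPM at 72 h (-2.00 ± 0.21).

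Of 14 tested genes of prostaglandin and leukotriene synthesis 3 rose and 3 fell. Pla2g4a, which frees arachidonic acid, was at 59.9 and 56.8 TPM at 24 h and 15.8 and 14.4 TPM at 72 h (-1.88 ± 0.11), and Alox5, which starts leukotriene synthesis, at 29.5 and 27.7 TPM at 24 h and 8.04 and 7.50 TPM at 72 h (-1.75 ± 0.12). Pla2g7, which inactivates platelet-activating factor, was at 266 and 257 TPM at 24 h and 955 and 949 TPM at 72 h (1.86 ± 0.06). Both synthesis genes were lower and Pla2g7 was higher in each 72 h library. Over all tested genes 6.44% rose and 7.33% fell. Of 19 tested integrin and adhesion genes 3 rose and 3 fell, of 8 genes of alternative activation 3 rose and 1 fell, and of 20 macrophage core genes 4 rose and 1 fell. The member that fell among the last was Cd14, the co-receptor for lipopolysaccharide, at 311 and 315 TPM at 24 h and 117 and 113 TPM at 72 h (-1.44 ± 0.06). Of 9 tested Notch targets and pathway genes 1 rose and 1 fell, beside 6.44% and 7.33% of all tested genes. Rbpj, the transcription factor of the Notch pathway, was at 65.8 and 57.5 TPM at 24 h and 18.5 and 20.0 TPM at 72 h (-1.63 ± 0.09), and Hes1, a target, at 0.216 and 0.246 TPM at 24 h and 2.68 and 1.99 TPM at 72 h (1.43 ± 0.14). Of 13 tested genes of arginine and polyamine metabolism 1 fell, Gatm, at 45.6 and 44.6 TPM at 24 h and 13.5 and 14.7 TPM at 72 h (-1.61 ± 0.06), beside 7.33% of all tested genes. Without the first 24 h library or the first 72 h library 2 fell, and with a pseudocount of 0.25 2 fell and 1 rose.

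The same interval was then read in the treated cells, whose libraries are separate from the untreated ones. With DLL4 alone 653 genes rose (5.99%) and 602 fell (5.52%) between 24 h and 72 h. With DLL4 and TGF-beta 750 rose (6.88%) and 390 fell (3.58%), and with DMHCA added 522 rose (4.79%) and 557 fell (5.11%). In both directions together these were 11.5%, 10.5% and 9.89% of the genes tested. Across the 10908 genes, which are not independent, the change in untreated cells had a Pearson r of 0.869 with that under DLL4, 0.641 with that under DLL4 and TGF-beta and 0.693 with DMHCA added. Of the 702 genes that rose untreated, 514 also rose under DLL4 (73.2% of the 702 and 78.7% of its 653), and of the 800 that fell, 487 also fell (60.9% of the 800 and 80.9% of its 602). Under DLL4 and TGF-beta 422 of the 702 rose (60.1%, and 56.3% of its 750) and 229 of the 800 fell (28.6%, and 58.7% of its 390). With DMHCA added 365 rose (52.0%, and 69.9% of its 522) and 349 fell (43.6%, and 62.7% of its 557). In all 3 treated pairs 332 of the 702 rose (47.3%) and 202 of the 800 fell (25.2%).

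The difference between the untreated change and the mean of the 3 treated changes was tested as a contrast of the same model. It was at least 2-fold with an adjusted p below 0.05 for 466 genes (4.27%), of which 237 were higher untreated (2.17%) and 229 lower (2.1%). Against DLL4 alone 182 genes differed (1.67%), 115 higher untreated (1.05%) and 67 lower (0.614%). Against DLL4 and TGF-beta 1239 differed (11.4%), 366 higher (3.36%) and 873 lower (8.0%), and against all 3 agents 674 (6.18%), 406 higher (3.72%) and 268 lower (2.46%). Against DLL4 and TGF-beta 29.5% of these calls were higher untreated, and 44.9% after quantile normalization. The 4 differences share the untreated libraries.

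Ccl2 and Ccl7 were among the genes whose change was lower untreated. Ccl2 fell by 4.18 on the log2 scale untreated, and its change was -1.01 under DLL4, 2.52 under DLL4 and TGF-beta and 0.66 with DMHCA added, a difference of -4.90 ± 0.29 from their mean (adjusted p = 6.37e-08). Its 72 h levels were 14.6 and 13.5 TPM untreated, 11.7 and 18.1 TPM under DLL4 and 7.49 and 12.9 TPM under DLL4 and TGF-beta. Ccl7 differed by -3.92 ± 0.35. Ptgs2, the inducible cyclooxygenase, and Adamdec1, a secreted protease, were at most 1.71 TPM in the untreated libraries and differed by -2.29 ± 0.13 and -3.05 ± 0.23, with changes under DLL4 and TGF-beta of 4.72 and 4.80. Hmga2, a chromatin protein gene, and Igfbp5 differed by -2.74 ± 0.18 and -2.79 ± 0.27, and neither was called within the untreated pair by limma on log2(TPM + 1). Igfbp5 was called higher in that pair with a pseudocount of 0.25 (1.12) and by limma-voom (1.58).

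The 6 genes that the naming rule gave for a change higher untreated were Fcrls, Ms4a4a, Ms4a7, Itgax, Clec4n and Aif1. Fcrls, a scavenger receptor-like gene, was at 11.3 and 11.6 TPM at 24 h and 36 and 31.9 TPM at 72 h untreated (1.49 ± 0.10), with treated changes of -3.91, -2.68 and -1.81 in the same order, a difference of 4.28 ± 0.12 (adjusted p = 8.31e-11). Ms4a4a and Ms4a7 differed by 3.82 ± 0.19 and 2.68 ± 0.09, and Itgax and Clec4n by 3.05 ± 0.12 and 2.66 ± 0.11. Aif1, which encodes the actin-binding protein IBA1, was at 9.23 and 16.6 TPM at 24 h and 35.9 and 32.4 TPM at 72 h and differed by 2.76 ± 0.20; its untreated rise of 1.39 was not called without the first 24 h library. Adgre1 differed by 1.56 ± 0.05, with treated changes of -0.70, -1.41 and -1.37.

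By list, 12 of 24 tested tissue-resident genes had a change higher untreated than in the treated mean and 1 lower, beside 2.17% and 2.1% of all genes. The counts were 11 and 1 of 25 phagocytic and Fc receptor genes, 10 and 0 of 27 interferon genes, 8 and 0 of 20 LXR targets and 2 and 14 of 21 ATF4 response genes. Of 20 tested macrophage core genes 2 were higher and 1 lower. These counts compare changes and not levels. The tissue-resident list summed to 2530.4 and 2772 TPM at 24 h and 4061 and 3951 at 72 h untreated, against 5916 to 6891 TPM at 24 h and 4822 to 5549 at 72 h in the 3 treated pairs. So the list was lower untreated at both times. The LXR target list summed to 5498 to 11572 TPM at 24 h and 9948 to 33642 at 72 h in the treated pairs, and its untreated level was below theirs at 24 h and within their range at 72 h. C1qa, for example, rose by 1.47 untreated, with treated changes of -0.52, -0.62 and -1.01. Abca1 rose by 3.18 untreated, with treated changes of 2.07, 0.94 and 0.21. Asns fell by 1.59 untreated, with treated changes of -0.45, 1.34 and 0.36. Of the 35 mitosis genes 35 fell under DLL4, 32 under DLL4 and TGF-beta and 35 with DMHCA added, and of the 38 replication genes 32, 12 and 28. Under DLL4 and TGF-beta the replication list summed to 885 and 867 TPM at 24 h and 475 and 483 at 72 h. Untreated it summed to 2021 and 2054 TPM at 24 h and 550 and 561 at 72 h. Mki67 had treated changes of -2.64, -2.06 and -3.06 beside -2.96 ± 0.11 untreated. Atp6v0d2 had 3.93, 4.16 and 3.10 beside 4.08 ± 0.09.

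**Figure D5:**
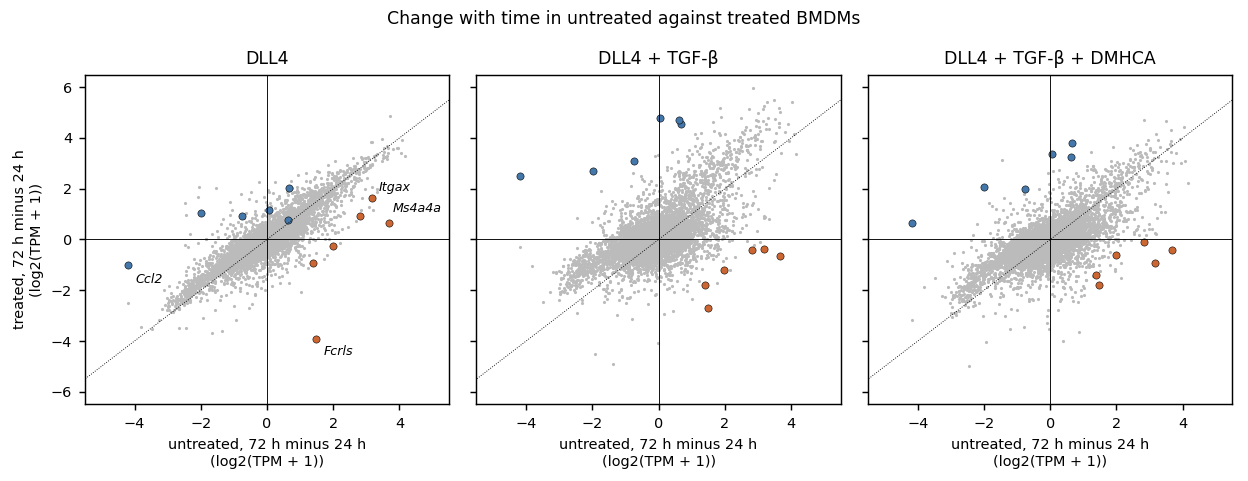
Log2 change from 24 h to 72 h in BMDMs given DLL4 (left), DLL4 and TGF-beta (middle) or DLL4, TGF-beta and DMHCA (right) on the y axis against the change in untreated BMDMs on the x axis, each point 1 of 10908 genes, with the dotted line at equal change. Orange points are the 6 named genes with a change higher untreated than in the treated mean and blue points the 6 lower; Fcrls lies at 1.49 untreated and -3.91 under DLL4, and Ccl2 at -4.18 and -1.01.

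A further 3 groups of untreated cells in the series give levels for a side by side reading only, since their tables were normalized separately, and the mice or the culture differ. They are BMDMs of Smad4 flox/flox mice on culture day 4, BMDMs of Nr1h3 wild-type controls on day 7 and bone marrow monocytes cultured for 2 days. Mki67 was at 156 ± 5.97 TPM in the first, 20.3 ± 2.13 in the second and 124 ± 5.79 in the third (mean ± SD, n = 2). Ccl2 was at 134 ± 39.4, 839 ± 51.2 and 126 ± 23 TPM, so it was not low in the day 7 cells. Atp6v0d2 was at 15.0 ± 2.88, 36.8 ± 8.60 and 17.0 ± 1.32 TPM, and Csf1 at 2.72 ± 0.268, 4.08 ± 0.268 and 0.53 ± 0.28 TPM. The stromal list summed to 28.7 and 30.4 TPM in the first, 3.58 and 3.94 in the second and 6.92 and 6.26 in the third. The neutrophil list summed to 5316 and 5112, 228 and 203, and 687 and 654 TPM in the same order. Its sums in these day 4 cells were thus not below the 4838 and 4965 TPM of the untreated 72 h libraries.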

How the data were processed

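Poly(A) RNA was sequenced after dUTP strand marking, per the labels' protocols. Whether counting used strand is not given in the sources used here. The deposited values are TPM, which the authors made with STAR and HOMER on mm10, per the submitters' processing notes, with 1 isoform kept per gene, per the file headers. Reads were recovered from the TPM (100% of values of up to 20 reads were whole within 0.1).

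In limma 3.58.1 (R 4.3.3), 1 mean per group was fitted on log2(TPM + 1) over the 18 libraries, which share 1 estimate of spread, for the 10908 genes with at least 4 TPM in 2 libraries. A gene was called at a 2-fold change with a p below 0.05 after Benjamini-Hochberg adjustment. The script was tested on simulated data. Interactions were contrasts of the same fit. No column lacked a sample.

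The 44 gene lists (788 genes, of which 664 were tested and 89 are in more than 1 list), the rule for naming genes and the comparison were chosen with earlier results of these data known. The rule named up to 12 genes per direction of at least 10 TPM with libraries that did not overlap, up to 6 called members of each list, up to 6 interaction genes per direction and 6 macrophage genes. Other genes given with values (among them Adam8, Apoc1, Atf4, C1qb, Ccl9, Cd36, Cdc20, Cdk1, Cdkn1a, Folr2, Gpnmb, Il1b, Mcm6, Msr1, Mylip, Pcna, Rrm1, S100a8, Spp1, Spred1, Tgfb2, Tnfrsf11a and Top2a, and markers not called) were chosen after their values were seen. The rule also named 2 genes that are not reported here. Replicate numbers did not pair the libraries. Alternatives were a pseudocount of 0.25, no expression filter, no minimum fold, quantile normalization, a replicate block, and leaving out each library, and, chosen after seeing the data, the 4 untreated libraries alone, limma-voom on recovered reads and the table without the DMHCA libraries. Tables and figures used Python 3.11.15, pandas 2.3.3, numpy 2.4.6 and matplotlib 3.10.9. Promoter sequences are from RefSeq on GRCm38.p6, the build that mm10 names.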

Additional observations from a re-analysis of the deposited data

Results flagged for a closer look

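The results below are listed because the change in untreated cells differed, by the contrast of limma's model with Benjamini-Hochberg adjustment, from the change over the same interval in treated cells. The difference from the mean of the 3 treated changes held for 466 genes, that from DLL4 for 182, that from DLL4 and TGF-beta for 1239 and that from all 3 agents for 674.

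Among the named genes, the difference on the log2 scale was 4.28 for Fcrls, 3.82 for Ms4a4a, 3.05 for Itgax, 2.76 for Aif1, 2.68 for Ms4a7, 2.66 for Clec4n, 1.56 for Adgre1 and 1.19 for Mamdc2, all higher untreated. It was -4.90 for Ccl2, -3.92 for Ccl7, -3.05 for Adamdec1, -2.79 for Igfbp5, -2.74 for Hmga2, -2.29 for Ptgs2, -1.74 for Aqp9, -1.71 for Dmpk, -1.17 for Raet1d, -1.08 for Ccnd1 and -1.01 for Uhrf1, all lower untreated. Each treated group had 2 libraries, and the 72 h treated libraries carry a treatment label of 24 h, so the hours of exposure at 72 h are uncertain.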

How the results depend on the processing

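Without a minimum fold, 2099 genes were higher and 4907 lower at 72 h untreated, against 702 and 800. Otherwise these counts ran from 685 to 918 higher and from 649 to 926 lower. Leaving out each library in turn gave 685 to 703 higher and 785 to 848 lower. Quantile normalization gave 771 and 649, and 590 of the 800 (73.8%) were still called lower. Under DLL4 and TGF-beta 1137 genes rose with no expression filter, against 750; the cause was not tested. No result changed direction while called.

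Of 263 called list members and named genes, 27 lost the call under quantile normalization, 4 under limma-voom and 6 to 12 without 1 library, and 0 under the others. Of 421 not called, 31 gained a call under limma-voom, 20 under quantile normalization, 17 with a pseudocount of 0.25, 3 to 11 without 1 library and 0 under the others. Aif1 moved to 1.00, just under the limit, without the first 24 h library, and the interaction of Adamdec1 lost its call under limma-voom (-2.20). With the replicate block 701 genes were higher and 802 lower, and the deviations of same-numbered libraries had a correlation of -0.08, so the numbers pair nothing. Without the DMHCA libraries the counts were 701 and 800.

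With 2 libraries per group, a lone library left by an omission is assumed to vary like the other groups. Genes at a few TPM rest on few reads, and their changes are understated.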

Other observations

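The 24 h replicates differed from each other more than the 72 h replicates. The cytosolic ribosomal protein list summed to 10784 and 13155 TPM at 24 h and 8925 and 8789 at 72 h, and S100a4 was at 1951 and 2781 TPM at 24 h and 583 and 639.9 TPM at 72 h. Over the 10908 tested genes the log2 difference between replicates had an SD of 0.244 at 24 h and 0.212 at 72 h, and 97 and 95 genes differed by 2-fold or more. By this measure the widest pairs were treated ones at 72 h. They were DLL4 with TGF-beta (0.349, 183 genes) and the same with DMHCA added (0.393, 239 genes). Both enter the contrast with the mean of the treated changes.

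The promoters of lysosomal genes, of which 5 of 34 rose, held CCAAT letters in 12 of 27 (44.4%) and those of all tested genes in 3098 of 8032 (38.6%). Among promoters of all genes that rose the share was 35.4%, and among those that fell 52.9%. These shares are descriptions of the windows and were not tested.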
